A study of Mus musculus with 8 samples.

Results

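The 37 nuclear-encoded subunits of respiratory complex I in the deposited counts were examined in murine megakaryocytes (MKs) with and without mesenchymal stem cells (MSCs). Members were all gene symbols that begin with Ndufa, Ndufab, Ndufb, Ndufc, Ndufs or Ndufv followed by a digit, which leaves out the Ndufaf assembly factors, and they made up 37 of the 13387 genes in the table. Bulk RNA-Seq had been performed on primary wild-type C57BL/6 MKs cultured alone (MKs alone, n = 4 libraries) or together with primary wild-type bone marrow MSCs sorted as CD45-Ter119-CD31-CD51+CD140a+ cells (cocultures, n = 4 libraries). Both groups were cultured for 18 hours, the labels name no other agent or allele, and the study's methods give 5 pooled wells per library and 4 mice per group. The labels describe MKs that had been separated from platelets, whereas the paper describes the RNA as that of platelets. The study's mice were 8 to 12 weeks old.

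Complex I (NADH:ubiquinone oxidoreductase) is the entry point of the mitochondrial respiratory chain, where electrons from NADH are passed to ubiquinone while protons are pumped across the inner membrane. Its N module oxidizes NADH, its Q module reduces ubiquinone, and its proximal and distal membrane arms hold the proton pumps. Core subunits carry the flavin and the iron-sulfur clusters or form the pumps, accessory subunits surround and stabilize them, and the pump-forming core subunits are encoded by mitochondrial DNA. MKs carry mitochondria and pass them on to the platelets they release.

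Libraries held between 4939874 and 12523616 counts, so that 3 counts corresponded to between 0.28 and 0.66 CPM (counts brought to a common library size with edgeR's TMM factors), which covers counting error only. One library, replicate 3 of the cocultures, stood apart before any comparison of the subunits. It had the most counts (12523616) and the fewest genes with a count (10735), against 12406 to 13193 genes in the other libraries. The comparisons of the subunits are therefore given with and without this library. No subunit was at 0 in any library, and the lowest count of any subunit in any library was 63.

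As a group, the subunits were higher in the cocultures. The sum over the 37 subunits was 3262, 3438, 3254 and 3206 CPM in MKs alone (3290 ± 102, SD, n = 4) and 4669, 4894, 8640 and 4311 CPM in the cocultures (5629 ± 2022, SD, n = 4). All 4 cocultures lay above all libraries of MKs alone, and replicate 3 lay far above the other cocultures, which had a mean of 4625 ± 294 CPM (SD, n = 3). The median log2 fold change of the subunits was 1.04 with all 8 libraries and 0.62 without replicate 3, which corresponds to 2.06-fold and 1.54-fold. The median over all genes tested was 0.03 in both fits. In bulk RNA, a change in the share of cells of one type and a change in RNA per cell cannot be told apart.

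Markers of other cells differed between the groups beside these sums. The 9 MSC markers in the table summed to between 28.3 and 43.8 CPM in MKs alone, 2679 to 3836 CPM in coculture replicates 1, 2 and 4, and 1177 CPM in replicate 3, and 6 of them were called higher (7 without replicate 3). In MKs alone the MSC receptor Pdgfra was at 0 in 2 libraries and at most 0.52 CPM, and in coculture replicate 3 Lepr was at 0 and Pdgfra at 0.21 CPM. The 11 macrophage markers summed to between 256 and 324 CPM in MKs alone and between 1085 and 1331 CPM in the cocultures, with 7 called higher (9 without replicate 3). All 11 neutrophil markers were called lower with and without replicate 3, from sums of 79499 to 82629 CPM in MKs alone to 9236 to 9763 CPM in replicates 1, 2 and 4 and 4456 CPM in replicate 3. Of the 9 B cell markers, 4 were called lower (6 without replicate 3), from 886 to 946 CPM to between 91.1 and 236 CPM. Of the 9 erythroid markers, 1 was called higher (1 higher and 4 lower without replicate 3), with sums of 134 to 164 CPM in MKs alone and 216 to 330 CPM in the cocultures. None of the 15 MK and platelet markers was called by edgeR with all libraries (1 was called lower by DESeq2) and 3 were called lower without replicate 3, and they summed to between 1978 and 2293 CPM in MKs alone and between 1774 and 2443 CPM in the cocultures, so the labelled cell type was present in both groups. The part of these other cells in the subunit values was not tested.

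**Figure D1:**
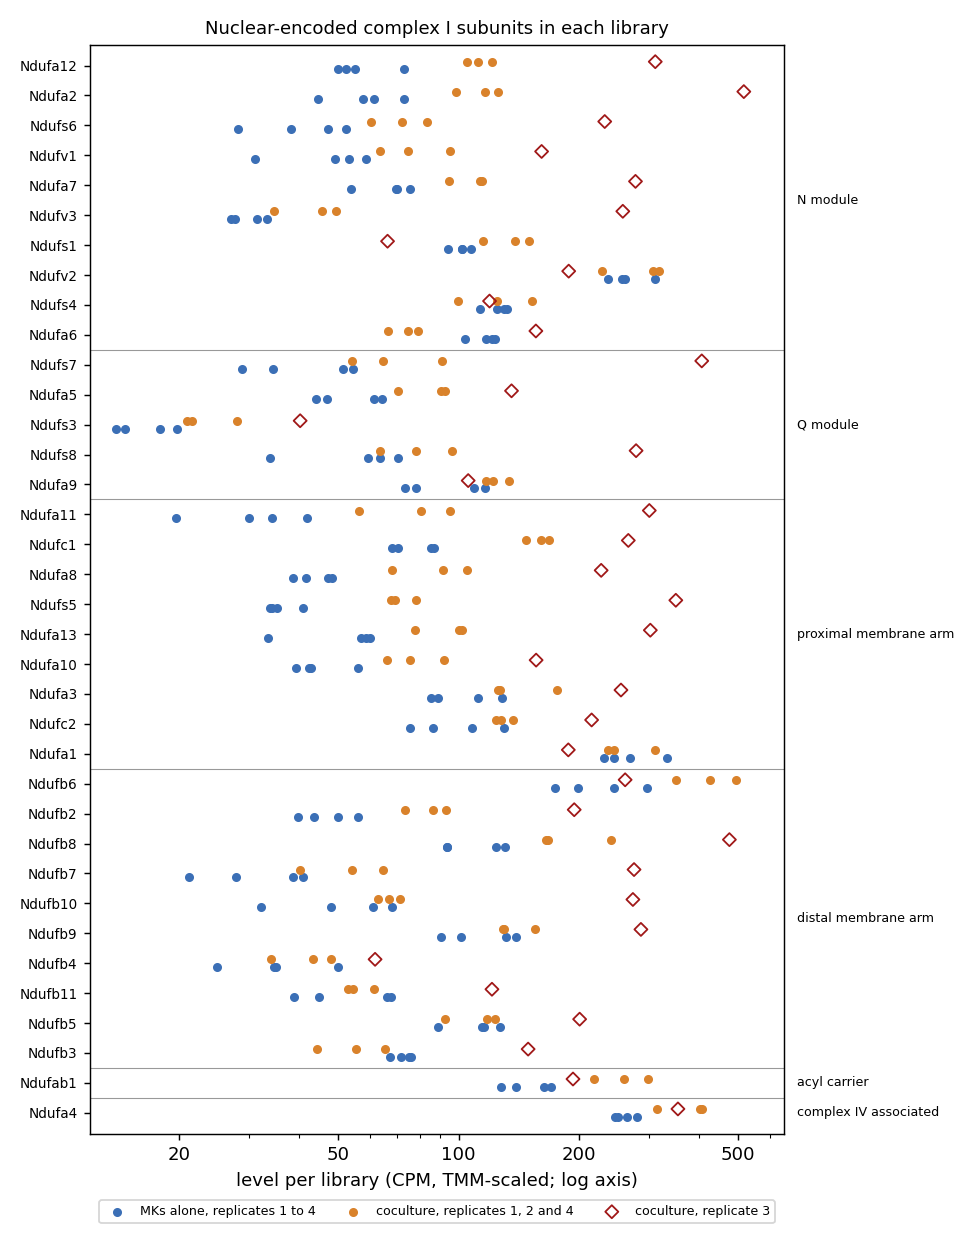
Level of 36 of the 37 subunits in each library, in CPM on a log axis, with the subunits grouped by their place in the complex. Blue points are MKs alone (n = 4), orange points are coculture replicates 1, 2 and 4, and open diamonds are coculture replicate 3, which was the highest coculture for 28 of those drawn and the lowest for 6.

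The count of subunits that passed the test depended on the rule and on the libraries. A gene was called when its fold change was at least 2, its adjusted p from edgeR's quasi-likelihood test was at most 0.05 and its mean was at least 1 CPM in a group. With all 8 libraries, 12 of the 37 subunits were called higher (32.4%, against 13.2% of the 11722 genes tested) and 0 were called lower (7.31% of all genes). Among them were Ndufa2, Ndufa7 and Ndufa12 of the N module, Ndufa8, Ndufa10, Ndufa11, Ndufa13, Ndufc1 and Ndufs5 of the proximal arm, and Ndufb2 and Ndufb8 of the distal arm. No subunit was lower at an unadjusted p below 0.05 (against 1696 of 11722 genes), and DESeq2 called 14 subunits higher and 0 lower. Without replicate 3, only Ndufa11 and Ndufc1 remained called higher (5.41%, against 20.6% of the 12267 genes tested) and 0 were called lower (15.4% of all genes). In that fit 2 subunits were lower at an unadjusted p below 0.05, against 3476 of 12267 genes. The share of subunits called was thus above that of all genes with the library and below it without the library. Leaving out MK-alone replicate 1, 2, 3 or 4 left 1, 2, 1 and 1 subunits called higher, where 8.6% to 9.06% of all genes were called higher.

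Without the fold cutoff, and before correction for length or GC content, the subunits stood above the background with and without replicate 3. By adjusted p alone (edgeR's quasi-likelihood test), 14 subunits were higher with all 8 libraries (37.8%, against 14.3% of all genes) and 0 were lower (8.75% of all genes). Without replicate 3, 21 subunits were higher (56.8%, against 29.2%), including all 14 found with the library, and 1 subunit was lower (2.7%, against 25.9%). Every coculture lay above every library of MKs alone for 19 subunits (51.4%, against 19.3% of all genes), and coculture replicates 1, 2 and 4 all did so for 22 subunits (59.5%, against 30.7%). Most of the rises outside replicate 3 were smaller than 2-fold, with the 32 positive log2 fold changes of that fit reaching at most 1.27.

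**Figure D2:**
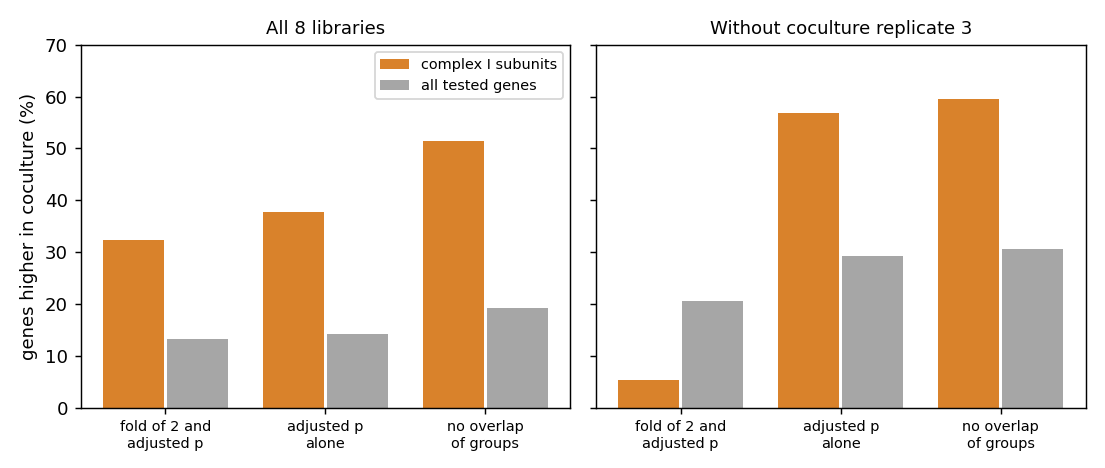
Percent of the 37 subunits (orange) and of all tested genes (gray) that were higher in the cocultures under each of 3 rules, with all 8 libraries (left) and without coculture replicate 3 (right). The subunits exceed all genes under every rule except the fold of 2 with adjusted p without replicate 3, where 5.41% of subunits and 20.6% of all genes were called.

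Gene length and base composition moved with the change across all genes, and the subunits are short genes. Their median exonic length was 983 bases, against 3309 for all tested genes, and when tested genes were divided into 4 equal classes by length, 33 of the 37 lay in the class of the shortest genes (180 to 2071 bases). The genes of that class had a median log2 fold change of 0.40 with all 8 libraries and 0.18 without replicate 3, and the median of the 33 subunits was 1.04 and 0.51. Among 4 such classes by GC content, the class with the highest had a median of 0.64 and 0.39, and that of the 10 subunits there was 1.33 and 0.66. Without replicate 3 and with a correction of each library for gene length, the subunits' median was 0.38 (0.34 above that of all genes) and 14 subunits were higher by adjusted p alone (edgeR's quasi-likelihood test; 37.8%, against 29.7% of all genes). With a correction for GC content in its place, the median was 0.43 (0.38 above that of all genes) and 22 subunits were higher by adjusted p (59.5%, against 33.5%). With all 8 libraries, the length correction left 4 subunits higher and 1 lower by adjusted p, against 1524 and 670 of 11714 genes. The GC correction left 5 higher and 0 lower, against 1523 and 684 of 11704 genes. Called higher by the full rule were 8.11% (length) and 13.5% (GC) of the subunits, against 12.8% and 12.7% of all genes.

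Of the N module, which takes electrons from NADH, 3 of 10 subunits were called higher with all 8 libraries (30%, against 13.2% of all genes). Without replicate 3, 0 were called by edgeR or DESeq2. There 6 were higher and 1 was lower by adjusted p alone, against 29.2% and 25.9% of all genes. At an unadjusted p below 0.05 these were 7 and 1, against 3876 and 3476 of 12267 genes. Ndufv1, the core subunit that binds NADH and the flavin, was at 30.9, 53.1, 49.2 and 58.7 CPM in MKs alone and at 63.6, 74.9, 161 and 95.1 CPM in the cocultures. The groups did not overlap, and replicate 3 was the highest library. The log2 fold change of Ndufv1 was 1.04 ± 0.35 (SE), with an adjusted p of 0.060 in edgeR's quasi-likelihood test, and 0.67 ± 0.22 without replicate 3 (adjusted p = 0.016). Ndufv2, its iron-sulfur partner in the core, was at 309, 261, 237 and 255 CPM in MKs alone and at 307, 317, 188 and 228 CPM in the cocultures. These groups overlapped, with replicate 3 the lowest library of all, and the log2 fold change was -0.03 ± 0.21 (edgeR adjusted p = 0.94) with all libraries and 0.08 ± 0.18 (adjusted p = 0.73) without replicate 3. Ndufs1, the core subunit with the most iron-sulfur clusters, was at 102, 108, 102 and 94.4 CPM in MKs alone and at 150, 138, 66.4 and 115 CPM in the cocultures. Replicate 3 of the cocultures fell below all MKs alone and the other 3 cocultures lay above them, with a log2 fold change of 0.39 ± 0.16 without replicate 3 (edgeR adjusted p = 0.054). The 3 N-module core subunits therefore differed in the place of replicate 3, which was highest for Ndufv1 and lowest for Ndufv2 and Ndufs1.

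Among the accessory subunits of the N module, Ndufa2, a small protein with a thioredoxin-like fold, was at 44.6, 73.0, 61.3 and 57.6 CPM in MKs alone and at 98.3, 125, 516 and 117 CPM in the cocultures. All cocultures lay above all MKs alone, and replicate 3 was 4.55 times the mean of the other cocultures. Its log2 fold change was 1.86 ± 0.55 (edgeR adjusted p = 0.039), and 0.92 ± 0.19 without replicate 3 (adjusted p = 0.0006). Exons of Ndufa2 overlap those of Tmco6 on the opposite strand, and whether strand was used in counting is not given in the sources used here. Ndufa12, which takes the place of the assembly factor Ndufaf2 late in assembly, was at 49.9, 73.2, 52.3 and 55.2 CPM in MKs alone and at 112, 121, 310 and 105 CPM in the cocultures. These groups did not overlap either, and the log2 fold change of Ndufa12 was 1.49 ± 0.38 with replicate 3 and 0.94 ± 0.18 without it (edgeR adjusted p = 0.022 and 0.0003). Ndufa7 and Ndufs6, the latter a zinc-binding subunit, had log2 fold changes of 1.15 and 1.43 with all libraries and of 0.65 and 0.77 without replicate 3, and only Ndufa7 passed the rule with all libraries, while both passed adjusted p without replicate 3.

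Ndufa6 went the other way in 3 of 4 cocultures. This accessory subunit, an LYR-motif protein that binds the mitochondrial acyl carrier, was at 117, 121, 124 and 103 CPM in MKs alone and at 74.8, 79.3, 156 and 66.8 CPM in the cocultures. Replicates 1, 2 and 4 lay below every library of MKs alone and replicate 3 lay above every one. The log2 fold change was -0.30 ± 0.29 with all libraries (edgeR adjusted p = 0.49) and -0.68 ± 0.17 without replicate 3 (adjusted p = 0.0023), which made it the only subunit lower by adjusted p. Ndufs4, an accessory subunit whose loss underlies a mouse model of Leigh syndrome, was at 125, 130, 132 and 113 CPM in MKs alone and at 153, 125, 119 and 99.4 CPM in the cocultures. Its groups overlapped, and its fold of 0.99 without replicate 3 had a 95% interval of 0.78 to 1.26.

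In the Q module, where ubiquinone is reduced, the median log2 fold change was 0.96 with all 8 libraries and 0.55 without replicate 3. No subunit was called by edgeR or DESeq2 without replicate 3, where 3 of the 6 were higher at an unadjusted p below 0.05, against 3876 of 12267 genes. Ndufs7, which carries the last iron-sulfur cluster before ubiquinone, was at 28.7, 34.4, 51.3 and 54.5 CPM in MKs alone and at 54.0, 64.6, 405 and 90.9 CPM in the cocultures. Coculture replicate 1 fell just below MK-alone replicate 4, and replicate 3 was 5.80 times the mean of the other cocultures. The log2 fold change of Ndufs7 was 1.86 ± 0.66 with an adjusted p of 0.072, and 0.70 ± 0.24 with an adjusted p of 0.021 without replicate 3 (edgeR).

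Ndufs8, the other Q-module core subunit with iron-sulfur clusters, was at 33.8, 59.3, 70.6 and 63.4 CPM in MKs alone and at 63.7, 78.2, 278 and 96.1 CPM in the cocultures. Its groups overlapped through coculture replicate 1, and the log2 fold change was 1.18 ± 0.49 (edgeR adjusted p = 0.12) and 0.45 ± 0.23 without replicate 3 (adjusted p = 0.10). Ndufs3, a core subunit without a cluster, was at 13.9, 19.8, 18.0 and 14.6 CPM in MKs alone and at 21.6, 27.9, 40.2 and 21.0 CPM in the cocultures. All cocultures were above all MKs alone, but neither fit passed the test (edgeR adjusted p = 0.17 and 0.085). The accessory subunits Ndufa5 and Ndufa9 had log2 fold changes of 0.84 and 0.34 with all libraries and of 0.62 and 0.37 without replicate 3, of which those of Ndufa5 passed adjusted p in both fits and those of Ndufa9 in neither.

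The proximal membrane arm held the most called members. With all 8 libraries, 6 of 9 were called higher (66.7%, against 13.2% of all genes), at a median log2 fold change of 1.25. Without replicate 3 the full rule called 2 of the 9 (22.2%, near the 20.6% of all genes), at a median of 0.81. By adjusted p alone the same 6 were higher there, against 29.2% of all genes. With the length correction and all libraries 1 of the 9 was called. Ndufa11, which has the largest change of all members, lies at the junction of the membrane arm and is related to the Tim17 family. It was at 19.6, 30.0, 34.2 and 41.8 CPM in MKs alone and at 56.3, 80.4, 300 and 95.1 CPM in the cocultures. No coculture overlapped MKs alone, and replicate 3 was 3.88 times the mean of the others. The log2 fold change of Ndufa11 was 2.08 ± 0.54 (edgeR adjusted p = 0.024), and 1.27 ± 0.24 without replicate 3 (adjusted p = 0.0003), where the fold of 2.41 had a 95% interval of 1.74 to 3.34. Ndufc1, a small single-helix accessory subunit, was at 85.2, 70.6, 68.3 and 86.7 CPM in MKs alone and at 168, 161, 266 and 147 CPM in the cocultures. Every coculture lay above 147 CPM and every library of MKs alone below 87 CPM, with a log2 fold change of 1.25 ± 0.23 (edgeR adjusted p = 0.0053) and 1.01 ± 0.17 without replicate 3 (adjusted p = 7e-05). These 2 members, named because they alone passed the full rule in both edgeR fits, differed in GC content, at 57.9% for the Ndufa11 transcript and 44.1% for that of Ndufc1. The GC correction ended the call of Ndufa11 (1.83 with all libraries and 0.88 without replicate 3) and the length correction that of Ndufc1 (0.999 and 0.81), while DESeq2 without replicate 3 called 4 members, all of this arm.

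Ndufs5, a disulfide-bonded accessory subunit on the intermembrane side, was at 34.2, 33.7, 40.9 and 35.1 CPM in MKs alone and at 67.9, 69.4, 349 and 78.1 CPM in the cocultures. Its groups did not overlap, replicate 3 was 4.86 times the mean of the other cocultures, and the log2 fold change went from 1.97 ± 0.56 to 0.97 ± 0.17 without that library (edgeR adjusted p = 0.035 and 0.0002). Ndufa8, Ndufa10 and Ndufa13, the last also known as GRIM-19, were each called higher with all libraries (log2 fold changes 1.49, 1.11 and 1.48) and stood at 0.98, 0.77 and 0.81 without replicate 3, where each passed adjusted p alone. Ndufa1, a small subunit needed for assembly of the membrane arm, was at 331, 268, 244 and 231 CPM in MKs alone and at 310, 244, 188 and 236 CPM in the cocultures. Its groups overlapped, replicate 3 was the lowest library, and the log2 fold change was -0.14 ± 0.21 (edgeR adjusted p = 0.68) and -0.05 ± 0.18 without replicate 3 (adjusted p = 0.84). The values for Ndufa3 (0.72 and 0.44) and Ndufc2 (0.60 and 0.36) did not pass the test in either fit.

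The distal membrane arm had a median log2 fold change of 0.67 with all 8 libraries and 0.28 without replicate 3, below those of the other modules, although differences between modules were not tested. Of its 10 members, Ndufb2 and Ndufb8 were called higher with all libraries (20%, against 13.2% of all genes). Without replicate 3, Ndufb2, Ndufb6, Ndufb7 and Ndufb8 were higher by adjusted p alone (against 29.2% of all genes) and 0 were called by edgeR or DESeq2. At an unadjusted p below 0.05 in edgeR, 4 were higher and 1 was lower without replicate 3, against 3876 and 3476 of 12267 genes. Ndufb7, an intermembrane-space subunit with paired disulfides, was at 21.2, 27.7, 40.8 and 38.6 CPM in MKs alone and at 40.2, 54.1, 274 and 64.9 CPM in the cocultures. Coculture replicate 1 lay just below the highest library of MKs alone and replicate 3 was 5.18 times the mean of the others, with a log2 fold change of 1.76 ± 0.62 (edgeR adjusted p = 0.072) and 0.70 ± 0.24 without replicate 3 (adjusted p = 0.021). Ndufb6 showed the reverse place of replicate 3, with 296, 198, 174 and 244 CPM in MKs alone and 495, 425, 261 and 349 CPM in the cocultures. Here the other 3 cocultures lay above all MKs alone, while replicate 3 lay within the range of MKs alone, so that the groups overlapped. The log2 fold change rose from 0.75 ± 0.26 (edgeR adjusted p = 0.067) to 0.87 ± 0.20 (adjusted p = 0.0014) when replicate 3 was left out. Ndufb3, a single-helix accessory subunit, was at 75.9, 71.9, 75.0 and 67.5 CPM in MKs alone and at 55.3, 65.6, 149 and 44.2 CPM in the cocultures. Replicates 1, 2 and 4 lay below all MKs alone and replicate 3 above them, and the log2 fold change was 0.12 ± 0.37 (edgeR adjusted p = 0.86) with all libraries and -0.42 ± 0.18 (adjusted p = 0.060) without replicate 3. Of the remaining members, Ndufb2 and Ndufb8 had log2 fold changes of 1.24 and 1.25 with all libraries and of 0.81 and 0.77 without replicate 3. Ndufb4, Ndufb5, Ndufb9, Ndufb10 and Ndufb11 passed the test in neither fit, with log2 fold changes from 0.26 (Ndufb5) to 1.18 (Ndufb10) with all libraries and from -0.02 (Ndufb5) to 0.33 (Ndufb10) without replicate 3.

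**Figure D3:**
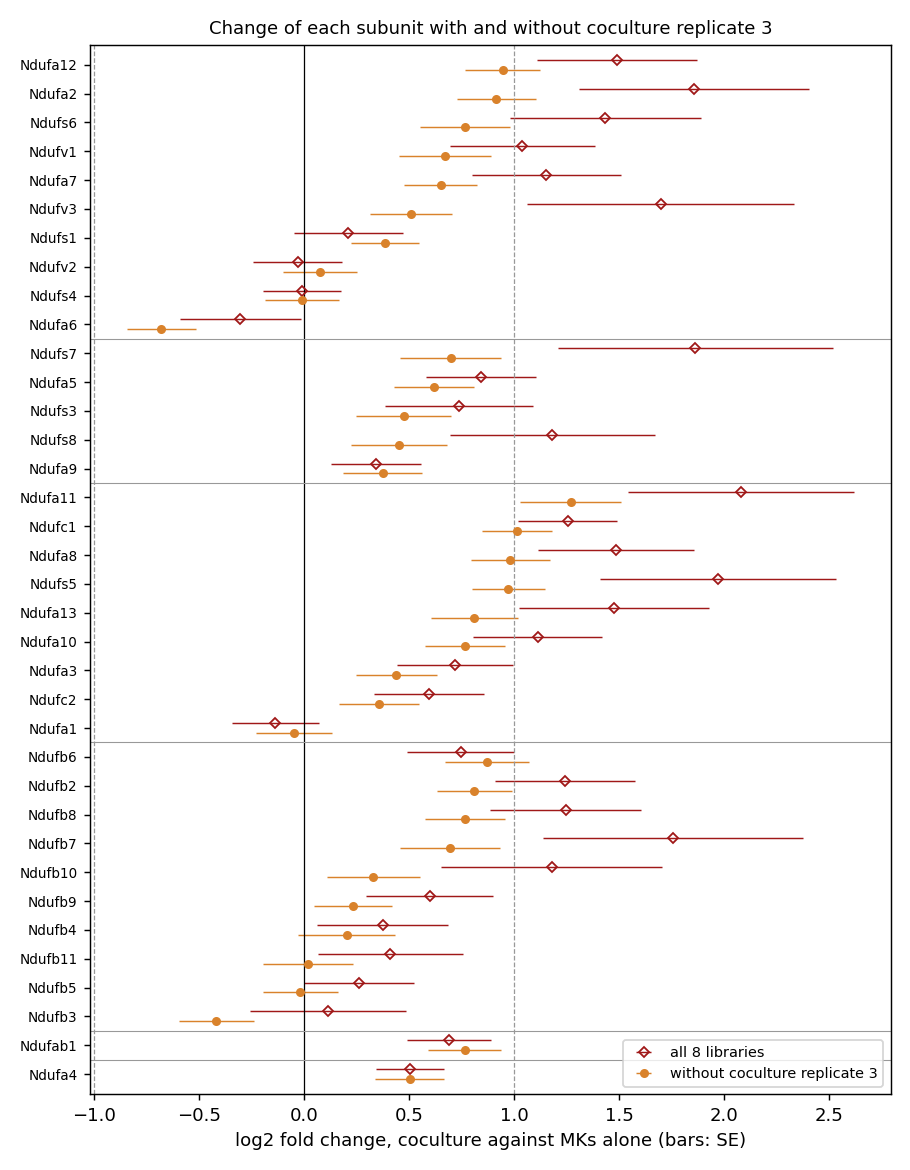
Log2 fold change of 36 of the 37 subunits in the cocultures against MKs alone, with SE bars, from the fit to all 8 libraries (open diamonds) and the fit without coculture replicate 3 (filled points), in the order of the plot of levels. The solid line marks no change and the dashed lines a fold of 2, which 2 subunits exceed without replicate 3.

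A few members have copies or a place outside complex I. Ndufab1, the mitochondrial acyl carrier protein that also serves fatty acid and lipoate synthesis, was at 170, 139, 128 and 164 CPM in MKs alone and at 298, 259, 193 and 218 CPM in the cocultures. Its groups did not overlap, replicate 3 was the lowest coculture, and the log2 fold changes of 0.69 ± 0.20 and 0.77 ± 0.17 without replicate 3 both passed the test (edgeR adjusted p = 0.036 and 0.0014) below the fold cutoff. Ndufa4, now counted with complex IV although its name remains, was at 279, 250, 246 and 264 CPM in MKs alone and at 400, 406, 353 and 313 CPM in the cocultures. All cocultures lay above all MKs alone with a log2 fold change of 0.50 ± 0.16 in both fits (edgeR adjusted p = 0.053, and 0.016 without replicate 3). Ndufb4, which has near-identical copies between which reads may be split, was at 50.1, 34.5, 24.9 and 35.0 CPM in MKs alone and at 48.1, 43.4, 61.8 and 34.0 CPM in the cocultures, and its groups overlapped. Exons of Ndufa3, Ndufb2, Ndufb5, Ndufb6, Ndufb11, Ndufs3 and Ndufs6 also overlap those of other genes in the table, so their counts are uncertain in the same way as those of Ndufa2.

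Among the subunits, the effect of replicate 3 went with the GC content of the transcript, and over all genes it also went with gene length. Replicate 3 was the highest coculture for 29 of the 37 subunits, where it was so for 38.9% of all genes tested, and the lowest for Ndufa1, Ndufa9, Ndufab1, Ndufb6, Ndufs1 and Ndufv2. The ratio of replicate 3 to the mean of the other cocultures ran from 0.49 for Ndufs1 to 5.96 for Ndufv3, with a median of 2.07. Ndufv3, an accessory subunit with tissue-specific isoforms, was at 26.9, 33.3, 31.3 and 27.7 CPM in MKs alone, at 34.6, 49.5 and 45.4 CPM in coculture replicates 1, 2 and 4 and at 257 CPM in replicate 3. Across the 37 subunits, the log2 difference between replicate 3 and the other cocultures had a Pearson r of 0.67 (Spearman rho 0.64) with GC content, a description across genes that share one library. The corresponding values for the log2 fold change without replicate 3 were 0.23 and 0.17. Over all tested genes, the median difference of replicate 3 went from -0.91 in the lowest of the 4 classes of GC content to 0.42 in the highest, and over the subunits in those classes from -0.05 to 1.90. By length, the all-gene median went from 0.49 in the class of the shortest genes to -1.03 in that of the longest. The 33 subunits in the shortest class had a median of 1.06. Across the 37 subunits, Pearson r with log2 length was -0.20 (Spearman rho -0.13). The part of base composition or of length in the values of this library was not tested beyond the corrections given above.

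**Figure D4:**
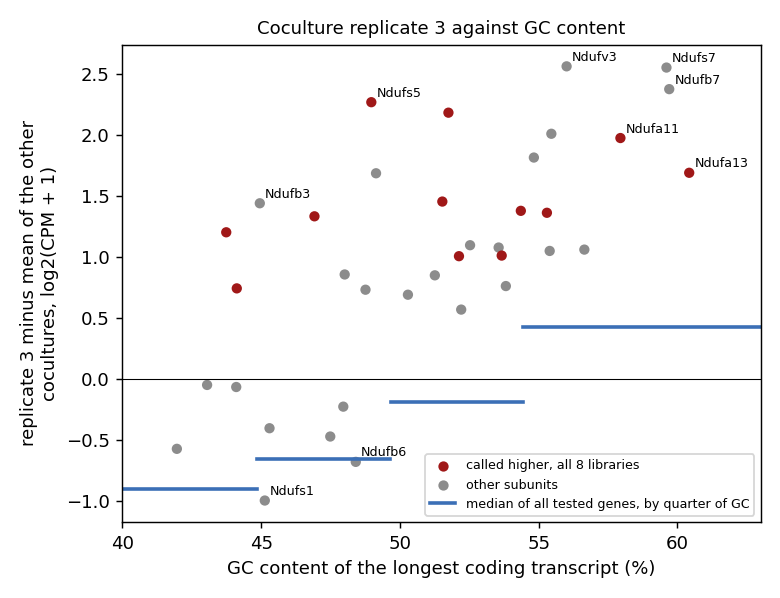
Difference between coculture replicate 3 and the mean of the other cocultures in log2(CPM + 1) for each subunit (points), against the GC content of its longest coding transcript in percent. Red points are the 12 subunits called higher with all 8 libraries, and blue lines are medians of all tested genes in 4 equal classes of GC content, which rise from -0.91 to 0.42.

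Promoters are shown for the 2 members that were called higher both with and without replicate 3 and for the member that was lower by adjusted p without it, since nuclear respiratory genes are known to be driven by NRF1, by ETS factors such as GABP and by YY1. Sequences are from RefSeq on GRCm38.p6 and run from 250 bases before to 50 after the annotated start, 5′ to 3′ on the strand of the gene. Ndufa11 is the promoter at chr17:56717512-56717811 (+ strand), and its capitals mark 2 overlapping matches to the NRF1 letters. Ndufc1 is at chr3:51408906-51409205 (- strand) with a YY1 match in capitals. Ndufa6 is at chr15:82354242-82354541 (- strand) with an NRF1 match on the reverse strand in capitals.
Ndufa11: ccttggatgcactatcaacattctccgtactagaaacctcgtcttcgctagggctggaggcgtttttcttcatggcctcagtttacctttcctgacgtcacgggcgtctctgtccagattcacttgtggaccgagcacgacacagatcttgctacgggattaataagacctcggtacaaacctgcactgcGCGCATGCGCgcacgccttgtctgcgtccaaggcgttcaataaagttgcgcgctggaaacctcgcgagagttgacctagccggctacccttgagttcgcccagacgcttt
Ndufc1: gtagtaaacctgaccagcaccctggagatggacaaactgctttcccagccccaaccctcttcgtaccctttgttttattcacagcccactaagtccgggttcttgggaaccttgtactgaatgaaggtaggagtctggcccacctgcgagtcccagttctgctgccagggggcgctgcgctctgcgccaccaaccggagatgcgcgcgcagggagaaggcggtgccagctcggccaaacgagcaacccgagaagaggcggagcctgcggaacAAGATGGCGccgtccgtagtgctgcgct
Ndufa6: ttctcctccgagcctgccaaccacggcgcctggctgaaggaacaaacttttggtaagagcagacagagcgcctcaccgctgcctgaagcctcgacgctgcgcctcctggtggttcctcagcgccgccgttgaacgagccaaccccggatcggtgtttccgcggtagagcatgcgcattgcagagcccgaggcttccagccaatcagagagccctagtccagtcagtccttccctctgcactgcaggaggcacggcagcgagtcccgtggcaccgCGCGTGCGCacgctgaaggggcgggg
The first matches in Ndufa11 begin at positions -60 and -59 from the start, and those in Ndufc1 and Ndufa6 at 23 and 25 after it. The Ndufa11 gene itself lies at chr17:56717767-56722141, Ndufc1 at chr3:51404677-51408988 and Ndufa6 at chr15:82350140-82354322 in GENCODE vM21 on the same build. The promoters shown were picked by the changes of their genes, and other member promoters also held matches. Whether a match went with the change of a subunit was not tested.

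The promoter table held 33 of the 37 members. For members the promoter nearest the GENCODE gene start was taken, and for all genes the first one listed, so the shares rest on unlike choices. The annotated start of a member promoter lay up to 538 bases (Ndufa13) from the GENCODE start. The NRF1 letters GCGCANGCG, searched on both strands, were in 8 of the 33 promoters (24.2%), against 6.47% of all 27025 promoters in the table and 14.3% of the 9311 that belong to tested genes. The YY1 letters AAGATGGCG were in 5 member promoters (15.2%), against 1.49% of all and 3.38% of those of tested genes. The ETS letters CCGGAAG were in 4 (12.1%), against 9.12% and 19.3%, so this motif was no more frequent in the members than in tested genes. At least one of the 3 motifs was in 16 of 33 (48.5%), against 15.3% of all promoters and 32.6% of those of tested genes. A match describes letters in this window and is not a measured binding site.

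Levels of different subunits were compared per kilobase of exonic length. In MKs alone, Ndufa1 stood highest at 641 CPM per kb, followed by Ndufa4 at 416 and Ndufb6 at 346, and Ndufb2 stood lowest at 10.8, a 59.3-fold range. In coculture replicates 1, 2 and 4, Ndufb6 (642 CPM per kb) and Ndufa1 (629) led, at levels within the spread between libraries of each other, followed by Ndufa4 at 598. The order was largely kept, with a Spearman rho of 0.89 between MKs alone and these cocultures, and of 0.74 between replicate 3 and the other cocultures. The exonic length joins all annotated isoforms, so genes with long alternative isoforms, Ndufb2 and Ndufab1 among them, are placed too low.

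None of the 7 complex I subunits encoded by mitochondrial DNA was called by edgeR or DESeq2 in either fit or passed an unadjusted p of 0.05 in edgeR, and their median log2 fold change was 0.47 with all libraries and 0.07 without replicate 3. With the GC correction and all libraries their median was 1.95. All 7 were then higher at an unadjusted p of 0.05 (against 2905 of 11704 genes) and none at an adjusted one. With the GC correction and without replicate 3 their median was 0.50, where 5 were higher by adjusted p (against 33.5% of all genes) and none was called (edgeR). Their sum was 15262, 5039, 9135 and 11040 CPM in MKs alone and 14310, 8230, 23730 and 12201 CPM in the cocultures. The groups overlapped, and the spread within MKs alone exceeded the difference between the means without replicate 3. Whether these subunits and the nuclear ones changed by different amounts was not tested.

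Of 16 complex I assembly factors in the table, Ndufaf2 alone was called higher, in both fits and also by DESeq2 in both (6.25% of the factors, against 13.2% of all genes and 20.6% without replicate 3). Its call was lost with the replicate block and with the length correction. Ndufaf2, a paralog of Ndufa12 that holds its place in the late assembly intermediate, was at 8.61, 10.8, 7.54 and 11.1 CPM in MKs alone and at 23.6, 27.6, 60.9 and 17.2 CPM in the cocultures. All cocultures lay above all MKs alone, with a log2 fold change of 1.76 ± 0.47 (edgeR adjusted p = 0.026) and 1.24 ± 0.25 without replicate 3 (adjusted p = 0.0006). Leaving out MK-alone replicate 1, 2, 3 or 4 or coculture replicate 2 left no assembly factor called. Tmem70, which assists assembly of complex I and of ATP synthase, was past adjusted p in both fits below the fold cutoff (log2 fold changes 0.87 and 0.84).

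Of 12 regulators of mitochondrial biogenesis in the table, 11 were tested, and those called were both lower and both beta subunits of GABP, the ETS factor also known as NRF2. They were 18.2% of the regulators tested in each fit. Of all genes, 7.31% were called lower with all libraries and 15.4% without replicate 3. Gabpb1 was at 94.2, 70.8, 63.5 and 81.2 CPM in MKs alone and at 29.3, 35.7, 27.1 and 36.3 CPM in the cocultures, and Gabpb2 was at 51.6, 22.5, 24.0 and 32.2 CPM against 17.2, 8.47, 8.06 and 14.2 CPM. For both genes every coculture lay below every library of MKs alone, replicate 3 included. The log2 fold change of Gabpb1 was -1.27 ± 0.24 (edgeR adjusted p = 0.0053) and -1.22 ± 0.19 without replicate 3 (adjusted p = 5.7e-05), and that of Gabpb2 was -1.44 ± 0.44 and -1.29 ± 0.31 (adjusted p = 0.042 and 0.0022). Leaving out MK-alone replicate 1, 2, 3 or 4, or coculture replicate 2 or 4, left 1 of the regulators called, and DESeq2 with all libraries called Polrmt, the mitochondrial RNA polymerase, higher beside them. The length correction with all libraries ended both calls, at -0.60 for Gabpb1 and -0.81 for Gabpb2, as did the GC correction, at -0.65 and -0.91. Nrf1, the factor whose letters were searched in the promoters, was at 63.1, 58.5, 61.0 and 61.8 CPM in MKs alone and at 32.8, 28.4, 112 and 38.5 CPM in the cocultures. Replicates 1, 2 and 4 lay below and replicate 3 above all MKs alone, and Nrf1 passed adjusted p only without replicate 3 (log2 fold change -0.90 ± 0.18, edgeR adjusted p = 0.0005). Yy1 likewise had a log2 fold change of -0.81 ± 0.18 without replicate 3 (edgeR adjusted p = 0.0012), and both were named because their motifs had been searched. By adjusted p alone in that fit, 4 of the 11 regulators were lower and 3 were higher, against 25.9% and 29.2% of all genes. The higher ones were Pprc1, Esrra and Polrmt, with log2 fold changes of 0.71, 0.95 and 0.90 (edgeR adjusted p = 0.015, 0.039 and 0.014). The regulators therefore did not all change in one direction.

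Complexes II to V, for which 44 genes were taken by symbol after values had been seen and 43 were tested, stood beside complex I. Their median log2 fold change was 0.80 with all libraries and 0.61 without replicate 3. In these fits 16 (37.2%, against 13.2% of all genes) and 7 (16.3%, against 20.6%) genes were called higher and 0 were called lower in either. At an unadjusted p below 0.05 in edgeR, 1 and 2 were lower, against 1696 of 11722 and 3476 of 12267 genes. The sum over these genes was 6928, 7268, 6942 and 6700 CPM in MKs alone and 9228, 9956, 17467 and 8585 CPM in the cocultures. All cocultures lay above all MKs alone here too, replicate 3 highest, and the difference between complex I and the other complexes was not tested.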

How the data were processed

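Bulk RNA-Seq was analysed for 4 libraries of MKs cultured alone and 4 of MKs cocultured with MSCs, grouped and numbered as in the labels. The authors deposited 1 table of gene counts without normalization. By the study's methods it came from SMART-Seq HT paired-end reads, filtered with fastp and quantified with kallisto on mm10. How transcripts were summed, and whether strand was used, is not given in the sources used here. Short or GC-rich genes and near-identical copies are the most open to differences in amplification and assignment, and PCR copies were not marked with molecular identifiers.

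Counts of all genes were fitted with edgeR 4.0.16 in R 4.3.3, using its robust quasi-likelihood test, TMM scaling and its filter on low counts. The fit was made with 8 libraries and again with 7, without coculture replicate 3. P-values were adjusted by Benjamini-Hochberg over all tested genes. Calls required a fold of 2, an adjusted p of 0.05 and 1 CPM, which are the study's cutoffs except that it used TPM. Ranges, medians and figures were made in Python 3.11 (pandas 2.3.3, matplotlib 3.10.9). GENCODE vM21 (GRCm38) gave lengths and GC content for 13374 of 13387 symbols. Corrections for length and GC content were loess offsets per library (span 0.5). Fold intervals are 95% intervals from the SE. The fits were tested on simulated counts. The subunits, gene lists and tests were chosen with earlier results of these data known. Named were core subunits, the 5 largest and 5 smallest log2 fold changes with all libraries, members with copies, and called pathway genes. Others named were chosen after their values were seen. The result of 1 subunit is not reported here, although it is counted in the sums, medians and counts. Alternatives were DESeq2 1.42.0, other scalings, no filter, the replicate number as a block, the corrections and leaving out each library. The labels do not say whether libraries came from separate animals, and the study gives 4 mice per group. If libraries share animals, p-values measure technical spread. The authors fitted a batch term whose levels are not given in the sources used here.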

Additional observations from a re-analysis of the deposited data

Results flagged for a closer look

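Each subunit and the sum over the 37 subunits were examined in MKs alone and in the cocultures, 76 groups of 4 libraries in all. In 19 of them, 1 library lay so far from the nearest other that the gap exceeded the 95% critical value of Dixon's test, and in 18 that library was coculture replicate 3. Chance marks about 1 in 20 such groups, or 3.8 here, and the groups share their libraries and so are not independent. The values of replicate 3 were 299.7 CPM for Ndufa11, 310.1 CPM for Ndufa12, 301 CPM for Ndufa13, 516 CPM for Ndufa2, 156 CPM for Ndufa6, 277 CPM for Ndufa7, 273 CPM for Ndufb10, 121 CPM for Ndufb11, 195 CPM for Ndufb2, 274 CPM for Ndufb7, 286 CPM for Ndufb9, 215 CPM for Ndufc2, 349 CPM for Ndufs5, 232 CPM for Ndufs6, 405 CPM for Ndufs7, 278 CPM for Ndufs8, 257 CPM for Ndufv3 and 8640 CPM for the sum, each above the other cocultures. The remaining one was MK-alone replicate 1 for Ndufa13, at 33.3 CPM below the other libraries of MKs alone.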

How the results depend on the processing

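The count of 12 subunits called higher depended on the processing more than their direction did. It was between 10 and 14 under DESeq2 (with or without the block), RLE factors, library size alone, no filter, marker scaling and adjusted p alone. Between 12.7% and 15.8% of all genes were higher under those settings. It was 3 with the length correction (8.11%, against 12.8% of all genes) and 5 with the GC correction (13.5%, against 12.7%). With the replicate block it was 4, where 9.35% of all genes were called higher. With the length correction and the block it was 0, where 7.29% of all genes were. Without coculture replicate 3 it was 4 by DESeq2, where 20.9% of all genes were called higher. In that set of libraries it was 3 with the GC correction (8.11%, against 19.9%) and 1 with the length correction (2.7%, against 20.5%). By adjusted p alone it was 21 there (56.8%, against 29.2%), with 1 lower. Leaving out 1 library at a time gave 1 to 16, where 8.6% to 20.6% of all genes were called higher. The DESeq2 fit without replicate 3, both GC corrections, the length correction without replicate 3 and adjusted p alone without it were chosen after seeing the data.

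The median log2 fold change moved from 1.04 to 0.51 with the length correction, 0.43 with that and the replicate block, 0.91 with the replicate block, 0.43 with the GC correction without coculture replicate 3 and 0.38 with the length correction without it, and lay between 0.62 and 1.21 with 1 library left out. All-gene medians moved too, to 0.27 (length), 0.32 (GC), -0.14 (block) and 0.14 (marker scaling), and above them the subunits stood by 0.24, 0.89, 1.05 and 0.93. The replicate numbers were not taken to pair the libraries: deviations from the group means of same-numbered libraries correlated at 0.30, 0.02, 0.12 and 0.02 across genes, and not every library correlated best with its own number.

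Called assembly factors went from 1 to 0 with the length correction, with the replicate block and with both, and to between 0 and 2 with 1 library left out. Called regulators went from 2 to 0 with the length correction, with or without the block, and to 1 with library size alone or marker scaling, and lay between 1 and 2 with 1 library left out.

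Of the other values, 627 kept direction and side of the threshold, 157 lost and 19 gained a call, and 37 changed sign, all of subunits and none of which was called by the full rule in the fit to 8 libraries. Log2 fold changes that changed sign were, for Ndufa1, 0.32 (GC) and 0.10 (GC without replicate 3), for Ndufa4, -0.05 (length and block), for Ndufb11, -0.037 (length, and length and block), -0.04 (GC without replicate 3) and -0.21 (length without replicate 3), for Ndufb4, -0.042 (length) and -0.057 (length without replicate 3), for Ndufb5, -0.002 (length and block), and -0.21 (length without replicate 3; -0.018 to 0.454 with 1 library left out), and for Ndufb9, -0.028 (length without replicate 3). Ndufb3 stood at -0.079 (DESeq2 and block), -0.49 (length), -0.53 (length and block), -0.059 (block), -0.38 (DESeq2 without replicate 3), -0.19 (GC without it) and -0.69 (length without it), and between -0.417 and 0.363 with 1 library left out. Ndufs4 stood at 0.004 (library size), 0.10 (markers), 0.022 (DESeq2 without replicate 3), 0.80 (GC) and 0.25 (GC without it), and between -0.121 and 0.126 with 1 library left out. Ndufv2 stood at 0.021 (library size), 0.11 (markers), 0.11 (DESeq2 without replicate 3), 0.75 (GC) and 0.41 (GC without it), and between -0.115 and 0.078 with 1 library left out. The cause of these changes was not tested. Rises below 2-fold could not be called by the full rule at any depth.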
